A study of Mus musculus with 8 samples.

Results

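Replication-independent histone variants are the histones that cells make also outside DNA replication and exchange into existing chromatin. Their genes have introns or polyadenylated transcripts in most cases, unlike the clustered histone genes that are expressed in S phase. Specific chaperones deposit them: HIRA and the DAXX and ATRX pair place H3.3, and the SRCAP and EP400 complexes place H2A.Z. In blood-forming cells, which divide and change their chromatin as they mature, the variants serve in transcription, repair of DNA breaks and compaction.

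The 10 genes described here were taken by symbol from the 27710 genes counted in each library. They are H2afz and H2afv (both H2A.Z), H2afx (H2A.X), H2afj (H2A.J), H2afy and H2afy2 (macroH2A1 and macroH2A2), H3f3a and H3f3b (both H3.3), and H1f0 and H1fx (linker histones H1.0 and H1x). All 10 symbols were found in every library.

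The cells were mouse bone marrow depleted of cells that carry lineage markers, grown with stem cell factor, thrombopoietin, Flt3 ligand and interleukin 3. Cells were either Alkbh5-deficient, carrying Vav-iCre, a recombinase transgene active in blood cells, and floxed Alkbh5 alleles (Vav-iCre+; Alkbh5fl/fl), or wild type (WT). The labels give no Vav-iCre for WT cells, and no strain background or age. Fed cells received 4-thiouridine (s4U), a nucleoside that marks newly made RNA, at 100 µM for 2 h and gave 3 libraries per genotype; cells given no agent (unlabelled) gave 1 per genotype. All RNA went through the same TimeLapse chemistry, and the values below are total RNA, not newly made RNA. ALKBH5 removes the N6-methyladenosine mark from RNA, and by its title the series asks how this enzyme affects the stability of RNAs of metabolism.

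Libraries held between 5723245 and 8615997 counts in genes. Alkbh5 had 0, 1 and 1 counts in Alkbh5-deficient fed libraries and 1 in the unlabelled one, against 1166, 1479 and 1061 in WT fed libraries and 1263 in the unlabelled one, as labelled. Replicate 2 of both genotypes held Xist RNA and no counts of the Y-linked Ddx3y, fed replicates 1 and 3 held Ddx3y RNA with at most 2 counts of Xist, and the unlabelled libraries held both. The unlabelled libraries therefore contain RNA from cells of both sexes, and s4U feeding cannot be told apart from the make-up of these cells. Progenitor markers (Kit, Cd34, Flt3, Gata2, Mpo, Elane, Prtn3 and Ctsg) were detected in every library, with a summed level of 4155 to 10336 CPM. Of the 6 fed libraries, 3 stood apart. In replicate 1 of both genotypes the summed progenitor markers were highest, at 10336 CPM in each, and the 5 stromal markers lowest, at 22.0 CPM in Alkbh5-deficient and 13.8 CPM in WT cells, against 312 to 1886 CPM elsewhere. WT fed replicate 3 had the highest stromal sum, 1886 CPM, and 14.2% of its counts in the predicted gene Gm26917, against 6.33% to 8.34% in the others.

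The pool of variant RNA was led by H3f3b and H2afy, which had the highest mean levels before division by length, and H2afy2 was nearly absent. Levels are gene counts scaled to library size (CPM), corrected by the trimmed mean of M values (TMM) over the 8 libraries. Divided by the length of all annotated exons, the mean level over the 8 libraries was 256 CPM per kb for H3f3b, 176 for H2afx, 131 for H2afz, 110 for H2afy, 75.5 for H2afj, 61.6 for H3f3a, 52.7 for H2afv, 42.2 for H1f0, 18.5 for H1fx and 0.29 for H2afy2. The order of the upper genes depends on the length used. With the longest protein-coding transcript as the length, H2afy came first at 367 CPM per kb, then H3f3b at 303, H2afz at 218 and H2afx at 176, while H2afj and H3f3a stood at 75.5 and 75.9. H2afy has 6809 bases of annotated exon but a longest coding transcript of 2046 bases. With exon lengths, neighbours in the order overlapped in their ranges over the 8 libraries, except that H3f3b lay above H2afx, and H2afy2 below H1fx, without overlap. With transcript lengths all neighbours overlapped other than H1fx and H2afy2.

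**Figure D1:**
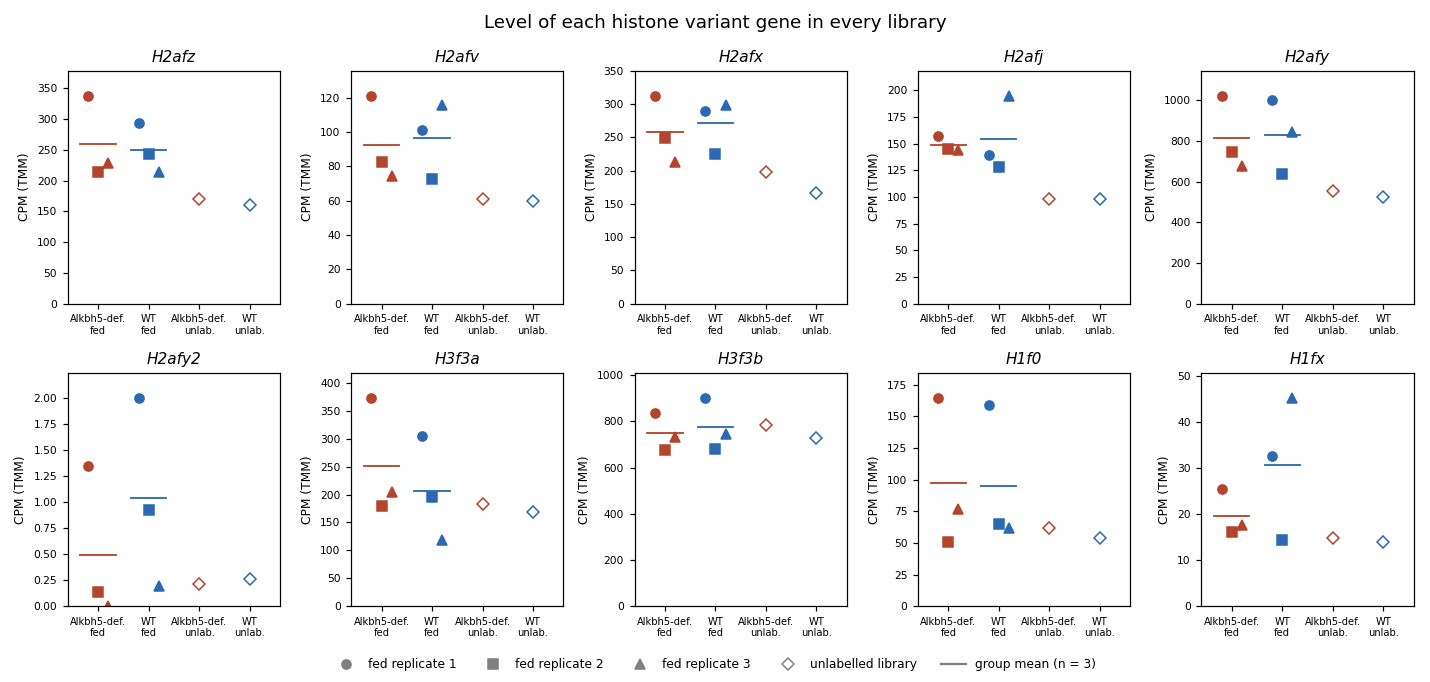
Level (CPM, TMM-scaled, linear axis from 0) of each histone variant gene in every library, with Alkbh5-deficient libraries in red and WT libraries in blue. Filled symbols are fed libraries by replicate number, lines their group means (n = 3) and open diamonds the single unlabelled libraries. Fed replicate 1 of both genotypes is high for H1f0 and H3f3a, and WT fed replicate 3 is low for H3f3a and high for H1fx.

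The H3.3 genes encode the same protein from different sequences. H3.3 replaces H3 at transcribed genes, at telomeres and in heterochromatin. H3f3a (ENSMUSG00000060743.12, GRCm38 chromosome 1, 180800832 to 180813943, minus strand) and H3f3b (ENSMUSG00000016559.14, chromosome 11, 116021912 to 116027962, minus strand) differ at 95 of 411 coding bases, an identity of 76.9%, and their longest shared run of bases is 23. The first 150 coding bases are printed because they show how densely the differences, in capitals, are spaced, which bears on whether short reads can be assigned to 1 gene; 32 of these 150 bases differ.
H3f3a: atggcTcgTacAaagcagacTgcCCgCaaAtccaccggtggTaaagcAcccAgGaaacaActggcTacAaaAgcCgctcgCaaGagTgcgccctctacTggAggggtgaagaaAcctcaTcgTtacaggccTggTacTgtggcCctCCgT
H3f3b: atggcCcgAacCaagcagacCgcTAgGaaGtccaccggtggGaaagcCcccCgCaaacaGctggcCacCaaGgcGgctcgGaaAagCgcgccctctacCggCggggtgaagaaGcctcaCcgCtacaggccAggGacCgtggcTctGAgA

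H3f3a and H3f3b varied to very different extents. H3f3b had 837, 678 and 733 CPM in Alkbh5-deficient fed replicates 1 to 3, against 900, 682 and 747 CPM in WT fed replicates, and 786 and 728 CPM in the Alkbh5-deficient and WT unlabelled libraries. It spanned 0.41 on the log2 scale over the 8 libraries, the narrowest range of the variants. H3f3a had 372, 179 and 204 CPM in Alkbh5-deficient fed replicates, against 305, 195 and 119 CPM in WT fed replicates, and 182 and 169 CPM in the unlabelled libraries. Its range was 1.64 on the log2 scale, with replicate 1 of both genotypes on top and WT fed replicate 3 at the bottom, and the genotypes overlapped.

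The share of H3f3a among H3.3 counts moved with these libraries. It was 30.8%, 20.9% and 21.8% in Alkbh5-deficient fed replicates, against 25.3%, 22.3% and 13.7% in WT fed replicates. In the unlabelled libraries it was 18.8% (95% exact binomial interval 18.0% to 19.7%, counting error only) in Alkbh5-deficient and 18.9% (18.0% to 19.8%) in WT cells. The fed libraries thus lay on both sides of the unlabelled ones, and those of the genotypes overlapped. The genome holds many processed copies of H3f3a: 40 annotated pseudogenes matched it at 90% identity or more over at least 200 bases, of which 24 had counts listed, and these took 8.86% to 18.1% of the joint counts of H3f3a and its copies. For H3f3b 2 counted copies took 9.29% to 10.7%. H3f3c, which is among the counted H3f3a copies, is annotated as a processed pseudogene and is 99.0% identical to H3f3a over 411 bases. It had 74 to 188 counts per library. H3f3aos, antisense to the start of H3f3a, had 8 to 28.

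**Figure D2:**
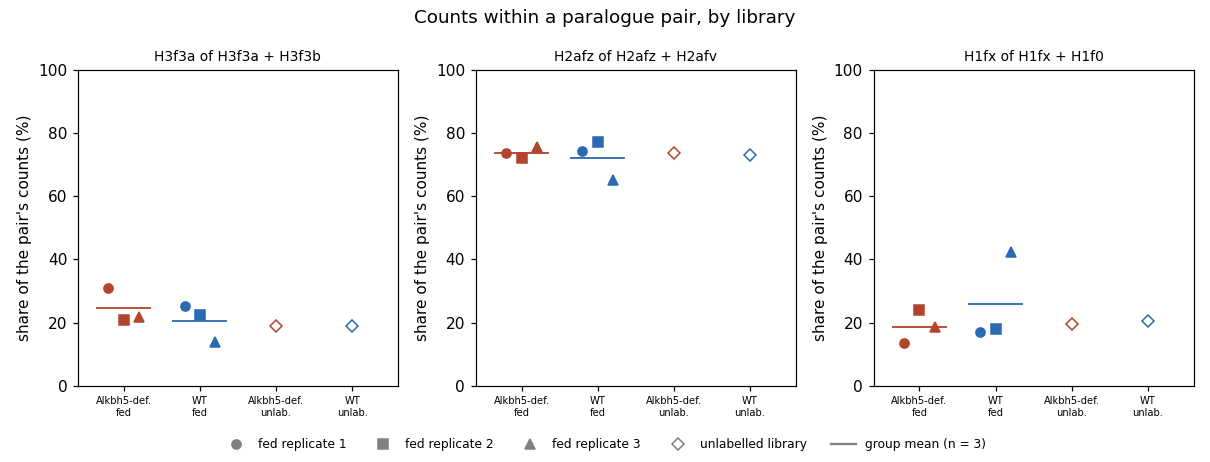
Share (%, axis 0 to 100) of the counts of 3 paralogue pairs taken by H3f3a, H2afz and H1fx in every library, with Alkbh5-deficient libraries in red, WT in blue, fed libraries filled and unlabelled ones open; lines are means of 3 fed libraries. WT fed replicate 3 lies apart in each panel, at 13.7%, 65.0% and 42.3%, and Alkbh5-deficient fed replicate 1 also does for H3f3a, at 30.8%.

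The H2A.Z genes, whose proteins sit at promoters and enhancers, are H2afz (ENSMUSG00000037894.13, chromosome 3, 137864487 to 137866922, plus strand) and H2afv (ENSMUSG00000041126.16, chromosome 11, 6427229 to 6444443, minus strand). Their coding sequences differ at 81 of 387 bases, an identity of 79.1%, with a longest shared run of 14. The first 150 coding bases are shown for the same reason as above, with the 34 differing bases in capitals.
H2afz: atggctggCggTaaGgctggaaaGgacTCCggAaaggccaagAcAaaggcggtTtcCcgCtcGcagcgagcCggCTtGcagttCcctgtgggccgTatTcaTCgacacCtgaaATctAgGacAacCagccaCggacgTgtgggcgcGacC
H2afv: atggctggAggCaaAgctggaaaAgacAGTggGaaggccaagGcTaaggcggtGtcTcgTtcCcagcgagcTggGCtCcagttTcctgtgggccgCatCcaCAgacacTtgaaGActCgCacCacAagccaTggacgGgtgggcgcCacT

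H2afz was the more abundant H2A.Z gene in every library. It had 338, 214 and 229 CPM in Alkbh5-deficient fed replicates, against 294, 244 and 214 CPM in WT fed replicates, and 170 and 161 CPM in the Alkbh5-deficient and WT unlabelled libraries. H2afv had 121, 82.4 and 74.2 CPM in Alkbh5-deficient fed replicates, against 101, 72.8 and 115 CPM in WT fed replicates, and 61.0 and 59.8 CPM in the unlabelled ones. For both genes all 6 fed libraries lay above both unlabelled libraries, while the fed genotypes overlapped.

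H2afz made up 73.6%, 72.2% and 75.5% of the counts of this pair in Alkbh5-deficient fed replicates, 74.4%, 77.0% and 65.0% in WT fed replicates, and 73.6% and 72.9% in the Alkbh5-deficient and WT unlabelled libraries. Other than in WT fed replicate 3, the share stayed between 72.2% and 77.0%. The processed pseudogene Gm8203 is identical to H2afz over 387 bases, so reads from the coding part cannot be assigned to either with certainty, and 4 copies together took 14.6% to 21.0% of the joint counts. H2afv lies 70.6 kb beyond the end of Ogdh, a metabolic gene whose log2 difference between Alkbh5-deficient and WT fed libraries was -1.20 ± 0.16 (SE), with an adjusted p of 0.35 by edgeR and 7.6e-06 by DESeq2. The difference of H2afv was -0.06 ± 0.24.

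H2A.X is phosphorylated around DNA breaks, and H2A.J is a variant that accumulates in senescent human fibroblasts. H2afx (ENSMUSG00000049932.3, chromosome 9, 44334694 to 44336077, plus strand) had 313, 249 and 212 CPM in Alkbh5-deficient fed replicates, against 290, 225 and 299 CPM in WT fed replicates, and 197 and 166 CPM in the unlabelled libraries. H2afj (ENSMUSG00000060032.6, chromosome 6, 136808244 to 136810074, plus strand) had 158, 145 and 144 CPM in Alkbh5-deficient fed replicates, against 140, 128 and 195 CPM in WT fed replicates, and 98.0 CPM in each unlabelled library. Both genes were higher in all 6 fed libraries than in either unlabelled one.

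H2afx is known to give both a short transcript that ends after a histone stem-loop, as replication-dependent genes do, and a longer polyadenylated one. The stem-loop was searched on the sense strand of GENCODE M21 transcripts as GGNNCT, then TTTN, then AGNNCC, a stem of 6 paired bases around a loop of 4. It was found in 1 of the 10 variant genes, H2afx, in 44 of 67 replication-dependent histone genes (65.7%) and in 4 of 21800 other protein-coding genes (0.0183%). The matches are shown with 7 bases on each side, the stem-loop in capitals, next to those of a replication-dependent H3 and H2A gene.
H2afx: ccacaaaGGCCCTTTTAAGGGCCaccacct
Hist1h3b: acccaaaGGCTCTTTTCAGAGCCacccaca
Hist1h2ac: acccaaaGGCTCTTTTCAGAGCCcccactt
In H2afx-201 the match spans bases 547 to 562 of 1384, with 822 bases after it, whereas the Hist1h3b transcript ends 51 bases after its match and Hist1h2ac-201 2010 bases after. A count per gene does not separate the short and long H2afx transcripts.

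MacroH2A proteins carry a large domain outside the nucleosome and are known for their place on the inactive X chromosome and at silent genes. Nearly all macroH2A RNA came from H2afy (ENSMUSG00000015937.15, chromosome 13, 56073619 to 56136361, minus strand), which took between 99.8% and 100% of the counts of H2afy and H2afy2 in every library. The antisense gene Gm47071, which overlaps H2afy, had 53 counts over the 8 libraries. H2afy had 1022, 743 and 676 CPM in Alkbh5-deficient fed replicates, against 1002, 638 and 845 CPM in WT fed replicates, and 555 and 525 CPM in the unlabelled libraries. The libraries with Xist RNA only, replicate 2 of each genotype, held 13896 Xist counts in Alkbh5-deficient and 17471 in WT cells, and their H2afy levels were 743 CPM, between the other Alkbh5-deficient fed libraries, and 638 CPM, below the other WT fed libraries.

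H2afy2 (ENSMUSG00000020086.6, chromosome 10, 61738665 to 61784147, minus strand) was at the limit of detection. It had 9, 1 and 0 counts in Alkbh5-deficient fed replicates, against 12, 8 and 1 in WT fed replicates, and 2 counts in each unlabelled library. A count of 0 among the 7708983 gene counts of Alkbh5-deficient fed replicate 3 allows a level of up to 0.389 CPM, from counting error only. The gene did not pass the low-count filter of the genotype comparison, and its 3' end overlaps Aifm2 on the other strand.

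The linker histones bind the DNA between nucleosomes. H1f0 (ENSMUSG00000096210.2, chromosome 15, 79028450 to 79030504, plus strand) encodes H1.0, known to accumulate as cells leave the cycle and differentiate, and it had 164, 50.9 and 76.5 CPM in Alkbh5-deficient fed replicates, against 159, 65.3 and 61.6 CPM in WT fed replicates, and 61.5 and 54.2 CPM in the unlabelled libraries. Its range of 1.68 on the log2 scale (log2 CPM with a prior count of 2) was the widest among variants averaging 5 CPM or more by a narrow margin, H1fx following with 1.68, and without the prior count H1fx had the larger ratio of highest to lowest level, 3.25 against 3.22. For H1f0, replicate 1 of both genotypes lay far above the other 6 libraries. H1fx (ENSMUSG00000044927.6, chromosome 6, 87980421 to 87981637, minus strand), which overlaps the antisense gene Gm5577, had 25.4, 16.0 and 17.5 CPM in Alkbh5-deficient fed replicates, against 32.6, 14.4 and 45.1 CPM in WT fed replicates, and 14.8 and 13.9 CPM in the unlabelled libraries. H1fx was highest in WT fed replicate 3, where it took 42.3% of the counts of the H1f0 and H1fx pair. In the other libraries this share was 13.4%, 23.9% and 18.6% in Alkbh5-deficient fed cells, 17.0% and 18.1% in WT fed cells, and 19.4% and 20.4% in Alkbh5-deficient and WT unlabelled cells.

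By the rule of the widest log2 range, H1f0 was taken for a search of similar patterns. The genes whose pattern over the 8 libraries lay nearest to that of H1f0 were Chtf8, Lgals3 and Dglucy, with a root mean square difference of centred log2 CPM of 0.15, 0.15 and 0.17. Lgals3, which encodes the sugar-binding protein galectin-3, had 391, 153 and 199 CPM in Alkbh5-deficient fed replicates, against 334, 182 and 146 CPM in WT fed replicates. In replicate 1, where H1f0 was high, the 6 monocyte and macrophage markers summed to 982 CPM in Alkbh5-deficient and 872 CPM in WT cells, against 426 to 567 CPM in the other libraries. The 6 neutrophil markers summed to 1612 and 2574 CPM there, against 636 to 1244 CPM elsewhere, with no marker of either list at 0. The 6 B cell markers summed to 19.5 and 46.1 CPM, against 113 to 203 CPM elsewhere. Reads in no gene made up 37.6% and 38.3% of all counts in replicate 1, against 48.9% to 52.1% elsewhere. The part of these differences in the H1f0 and H3f3a levels was not tested. In bulk RNA, fewer cells of a type and less RNA per cell cannot be told apart.

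No variant gene passed the test between Alkbh5-deficient and WT fed libraries. The comparison asked whether loss of ALKBH5 changes steady-state RNA, with edgeR's quasi-likelihood test and Benjamini-Hochberg adjustment at 0.05 over 13342 genes, of which 1 was called (0.0075%), Alkbh5 itself; 151 genes had an unadjusted p under 0.05 and DESeq2 called 2. Of the 9 variants tested, 0 were called by edgeR, 0 had an unadjusted p under 0.05, and DESeq2 called 0. For none of them were the 3 Alkbh5-deficient libraries all above or all below the 3 WT libraries, against 758 of all genes tested (5.68%).

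The fitted log2 differences of 7 variants lay close to 0. They were 0.05 ± 0.22 (SE) for H2afz, -0.06 ± 0.24 for H2afv, -0.08 ± 0.19 for H2afx, -0.05 ± 0.18 for H2afj, -0.03 ± 0.22 for H2afy, -0.06 ± 0.17 for H3f3b and 0.02 ± 0.49 for H1f0. H3f3a, at 0.28 ± 0.38, and H1fx, at -0.64 ± 0.39 (unadjusted p = 0.136 by edgeR), lay further out, and the adjusted p of all 9 was 1.00. With the same-numbered libraries compared, H1fx differed by -0.36, 0.15 and -1.36 for replicates 1, 2 and 3, so its mean rested on WT fed replicate 3. The fitted difference of H1fx was -0.25 without that library. Without WT fed replicate 2 it was -0.98 (edgeR unadjusted p = 0.0086, adjusted p = 0.947). In that setting 3.51% of all genes tested had an unadjusted p under 0.05. H3f3a differed by 0.29, -0.13 and 0.78 for replicates 1, 2 and 3, and its fitted difference was -0.10 when Alkbh5-deficient fed replicate 1 was left out and 0.01 when WT fed replicate 3 was. The median over the tested variants was -0.05, against 0.0012 for all genes tested, and single libraries turned its sign. It was -0.22 without Alkbh5-deficient fed replicate 1 and -0.18 without WT fed replicate 2. It was 0.067 without Alkbh5-deficient fed replicate 3, 0.012 without Alkbh5-deficient fed replicate 2, 0.065 without WT fed replicate 1 and -0.0095 without WT fed replicate 3.

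The standard errors of all 9 tested variants shrank when same-numbered libraries were treated as pairs, most for H1f0 and H3f3a. With the number as a block the difference of H1f0 was -0.004 ± 0.17, against 0.02 ± 0.49 without it, and that of H3f3a was 0.31 ± 0.19, against 0.28 ± 0.38. No variant was called with the block.

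**Figure D3:**
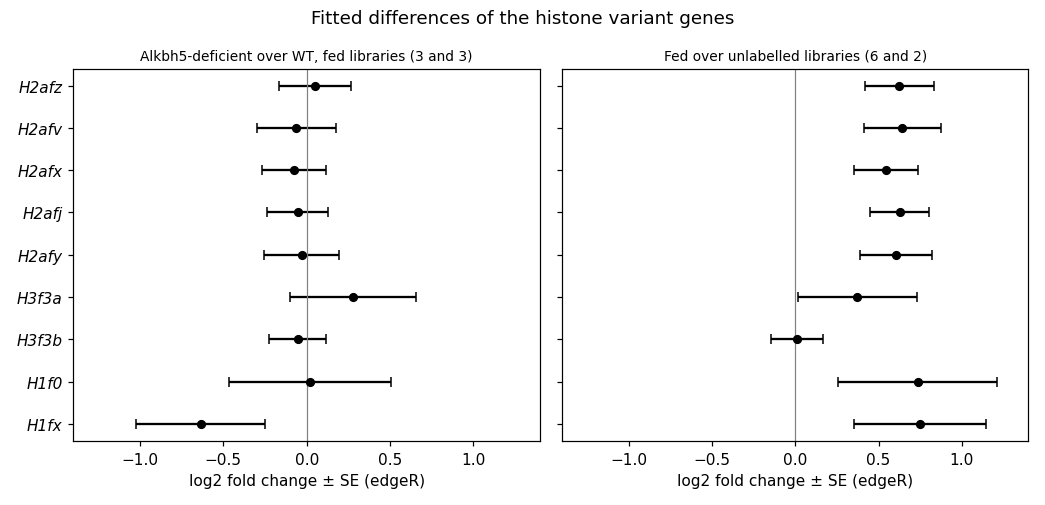
Fitted log2 fold change (points) with its SE (bars) from edgeR for the 9 variants with enough counts in both comparisons: Alkbh5-deficient over WT among fed libraries (left) and fed over unlabelled libraries (right). The left values scatter around 0, and the right values lie between 0.01 for H3f3b and 0.75 for H1fx.

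Between the unlabelled libraries, at 1 per genotype and with no replicate check, the variants also lay close together. The Alkbh5-deficient level as a percentage of the WT level was 119% for H2afx (95% interval 111% to 128%, counting error only), 108% for H3f3b (104% to 112%), 106% for H2afy (101% to 110%), 108% for H3f3a, 114% for H1f0, 106% for H2afz, 107% for H1fx, 102% for H2afv and 100% for H2afj. H2afy2, with 2 counts in each library, gave 84.1% (6.10% to 1160%). None of the 10 passed a 1.5-fold difference in either direction, against 13.1% of 14950 genes. That share includes genes with few counts, which counting error alone can move, and was not matched to the level of the variants. For H2afx, which had the highest ratio here and a log2 difference of -0.08 between fed genotypes, the interaction of genotype and s4U was -0.33 ± 0.39 (edgeR adjusted p = 1.00).

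Most variants had more RNA in fed than in unlabelled libraries, though not past the threshold over all genes. All 10 fitted log2 differences were above 0, with a median of 0.63, against 52.1% above 0 and a median of 0.03 among the 14988 genes tested. edgeR called 4 genes (0.0267%) and no variant. For 5 variants, H2afz, H2afv, H2afx, H2afj and H2afy, all 6 fed libraries lay above both unlabelled ones, as did 14.7% of all genes. The same 5 had an unadjusted p under 0.05 in the direction of higher in fed, as did 9.53% of all genes. The genes were not independent of each other in these libraries.

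Those 5 variants of the H2A family had similar log2 differences. They were 0.63 ± 0.21 (SE) for H2afz (edgeR unadjusted p = 0.0126, adjusted p = 0.175), 0.64 ± 0.23 for H2afv (adjusted p = 0.191), 0.54 ± 0.19 for H2afx (adjusted p = 0.186), 0.63 ± 0.18 for H2afj (adjusted p = 0.165) and 0.60 ± 0.22 for H2afy (adjusted p = 0.192). DESeq2, which called 3.88% of its genes as higher in fed cells, called H2afj (adjusted p = 0.0317), and over all 14 alternatives the adjusted p of H2afj lay between 0.0317 and 0.966. The 5 genes still had an edgeR unadjusted p under 0.05 when replicate 1 of both genotypes was left out, with log2 differences of 0.43 to 0.64. In that setting 21.2% of all genes tested had such a p in either direction, against 19.6% with all libraries.

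The comparison rested on 2 unlabelled libraries. The median log2 difference of the variants was 0.67 without the Alkbh5-deficient unlabelled library and 0.58 without the WT one. For all genes tested it was 0.042 and 0.011. With 1 unlabelled library left, its spread is assumed to be that of the fed groups. Progenitor markers moved in the same direction as the variants, with 7 of 8 above 0 and a median log2 difference of 0.58. So did the neutrophil markers (6 of 6, median 0.71), the monocyte and macrophage markers (5 of 6, median 0.59) and the mast cell and basophil markers (5 of 5, median 0.43). Of the B cell markers 1 of 6 was above 0 (median -0.34), and of the T and NK cell markers 2 of 6 (median -0.195). The erythroid (4 of 6, median 0.07), megakaryocyte (2 of 4, median 0.26) and stromal markers (3 of 5, median 0.24) were mixed. None of these markers was called by edgeR, and their part in the result was not tested.

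The H3.3 and linker genes behaved less evenly. H3f3b was at 0.01 ± 0.16, and H3f3a at 0.37 ± 0.36, H1f0 at 0.73 ± 0.48, H1fx at 0.75 ± 0.40 and H2afy2 at 1.54 ± 1.28, with edgeR adjusted p of 0.326 to 0.977. Without replicate 1 of both genotypes H1f0 was at 0.14 ± 0.18, H3f3a at -0.01 ± 0.20 and H3f3b at -0.09 ± 0.11. H1fx was at 0.40 without the WT unlabelled library and at 1.14 without the Alkbh5-deficient one. H2afy2 was at 0.89 without Alkbh5-deficient fed replicate 1, and at 0.31 with the counts of its pseudogene H2afy3 added. H3f3b took 25.0% to 31.0% of variant RNA in fed libraries, against 37.0% in the Alkbh5-deficient and 36.8% in the WT unlabelled library. Whether H3f3b differed from the H2A variants in its response was not tested.

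**Figure D4:**
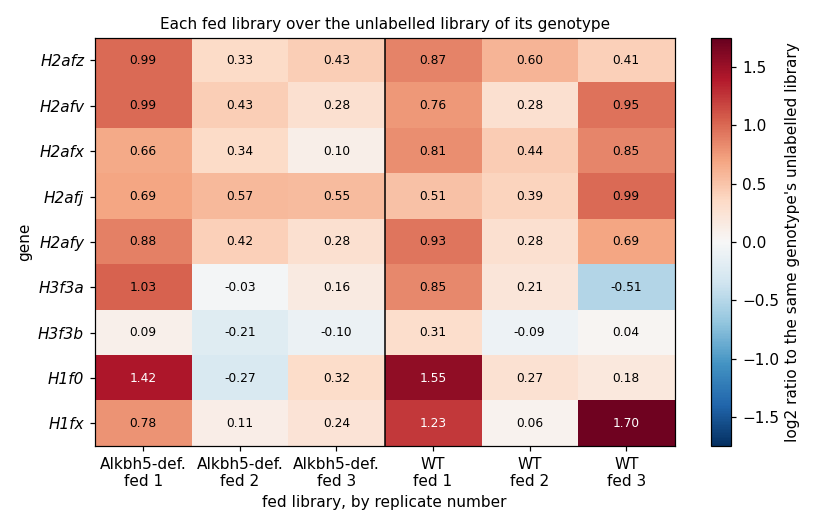
Log2 ratio of each fed library to the unlabelled library of its own genotype (colour and printed value) for 9 variants, Alkbh5-deficient libraries left of WT libraries; H2afy2 is left out for its low counts. The upper 5 rows, the H2A variants, are above 0 in all 6 libraries, H3f3b lies between -0.21 and 0.31, and H1f0 is highest in replicate 1, at 1.42 and 1.55. Libraries of a genotype share 1 unlabelled library.

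The genotype difference was not detectably altered by s4U for any variant. The interaction was called for 0 of 10 variants and 0 of 14988 genes (0%) by edgeR, where 24 genes and 0 variants had an unadjusted p under 0.05; DESeq2 called 0, with 9 genes under 0.05. With 1 unlabelled library per genotype, standard errors were 0.35 to 0.97 for the 9 variants other than H2afy2, so only large differences could have been seen.

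The summed RNA of the variants kept a near-constant ratio to that of the replication-dependent histone genes. The 10 variants summed to 3351, 2358 and 2367 CPM in Alkbh5-deficient fed replicates, against 3224, 2265 and 2641 CPM in WT fed replicates, and 2127 and 1975 CPM in the unlabelled libraries. The 69 replication-dependent genes summed to 13502, 8759 and 9012 CPM in Alkbh5-deficient fed replicates, against 11568, 8263 and 10279 CPM in WT fed replicates, and 8369 and 7303 CPM in the unlabelled libraries. Variant RNA was 24.8% to 27.9% of replication-dependent RNA in every library, although each sum moved by over 1.5 times. This ratio includes H3f3b, which took 25.0% to 31.0% of the variant sum in fed libraries and 36.8% and 37.0% in the unlabelled ones. It was not computed without H3f3b, and single variants need not keep it. Of 66 replication-dependent genes tested, 60 (90.9%) were above 0 in fed over unlabelled libraries (median 0.35, 1 called). Between Alkbh5-deficient and WT fed libraries 47 (71.2%) were above 0 (median 0.11, 0 called). Among all genes tested 52.1% and 50.2% were above 0 in these 2 comparisons. The 25 cell cycle genes summed to 4501 to 5498 CPM.

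No gene that handles these histones passed the test. Of 32 chaperones and exchange factors, 0 were called between genotypes or between fed and unlabelled libraries, with medians of -0.03 and 0.02 and with 13 and 16 genes above 0. In fed over unlabelled libraries 3 of the 32 had an edgeR unadjusted p under 0.05 as higher and 6 as lower. Of the 14988 genes tested, 1429 did as higher and 1504 as lower. Between genotypes the H3.3 chaperone Hira was at -0.10 ± 0.21, its other chaperone Daxx at -0.30 ± 0.19 and the DAXX partner Atrx at 0.26 ± 0.33. Srcap, which loads H2A.Z, was at 0.02 ± 0.21, and Anp32e, which removes it, at -0.16 ± 0.16. Leaving out 1 library at a time moved Daxx between -0.40 (without WT fed replicate 1) and -0.081 (without WT fed replicate 3). It moved Atrx between 0.038 (without Alkbh5-deficient fed replicate 3) and 0.62 (without WT fed replicate 2), and Anp32e between -0.27 (without WT fed replicate 2) and -0.056 (without WT fed replicate 3). In fed over unlabelled libraries Anp32e was at 0.34 ± 0.15 (edgeR unadjusted p = 0.0516) and Atrx at -0.52 ± 0.29, or -0.30 when replicate 1 of both genotypes was left out. Daxx was at 0.30 ± 0.19, and at 0.19 without WT fed replicate 3, while Hira was at 0.10 ± 0.19, and at 0.016 without that library. The 6 factors of histone 3' end formation and transcription, Slbp, Npat, Lsm10, Lsm11, Zfp473 and Casp8ap2, had 0 calls, with medians of 0.0012 between genotypes and -0.11 in fed over unlabelled libraries.

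Promoter sequences were compared among the variants as a description. The CCAAT box, the site of the factor NF-Y, was searched as CCAAT on both strands (ATTGG on the other) in 300 bases around the RefSeq start (GRCm38.p6), from 250 before to 50 after. Promoters of 9 of the 10 variants were matched, all but H2afx. H3f3b and H2afv held 4 boxes each, H2afz and H2afj 3, H3f3a and H2afy2 1, and H2afy, H1f0 and H1fx 0, whereas 37.4% of 32851 promoters held at least 1, 3.37% at least 3 and 1.06% at least 4. The 2 promoters with 4 boxes are printed with the boxes in capitals because they hold the most among the variants. The H3f3b promoter is chr11:116024455-116024754 and the H2afv promoter chr11:6444394-6444693, both on the minus strand.
H3f3b: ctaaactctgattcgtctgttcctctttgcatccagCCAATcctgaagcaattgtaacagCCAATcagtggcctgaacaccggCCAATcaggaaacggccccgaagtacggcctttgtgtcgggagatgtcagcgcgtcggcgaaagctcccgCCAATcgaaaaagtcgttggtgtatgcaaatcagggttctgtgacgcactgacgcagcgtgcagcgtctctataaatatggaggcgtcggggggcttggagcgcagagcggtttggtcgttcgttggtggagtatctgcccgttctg
H2afv: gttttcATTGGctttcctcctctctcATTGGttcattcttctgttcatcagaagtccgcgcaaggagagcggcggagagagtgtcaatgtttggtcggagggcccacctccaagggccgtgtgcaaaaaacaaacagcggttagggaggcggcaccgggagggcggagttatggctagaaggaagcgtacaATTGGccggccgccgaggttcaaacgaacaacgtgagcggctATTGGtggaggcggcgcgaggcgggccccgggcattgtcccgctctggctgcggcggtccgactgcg
A match is a description of the letters and does not show binding.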

How the data were processed

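The authors deposited whole-number read counts per gene for each of 8 libraries, not normalized, per the files' values. The submitters' processing notes list HTSeq, HISAT2, STAR, cutadapt, Picard and DESeq2, and builds mm10 and GRCm38. Which tool did what, in which version, and the strand setting of the counts are not stated there, so overlapping antisense genes may share reads. The stranded kit is stated in the labels' protocols. Of the rows, 928 named no gene, and reads in no gene (37.6% to 52.1% of counts) were left out of library sizes and tests.

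The test was edgeR 4.0.16 under R 4.3.3 (TMM, default low-count filter, robust quasi-likelihood fit, Benjamini-Hochberg adjustment at 0.05), the genotype comparison on 6 fed libraries and the s4U comparison and interaction on all 8. An SE is the log2 fold change over the root of F. The fits were also run on simulated data with 200 changed genes. The simulated libraries shared a common profile, without the differences in cell make-up seen here. They therefore check the code and not the error rates on these data. Alternatives were RLE size factors, no filter, DESeq2 1.42.0, a replicate block, an additive fit over 8 libraries, removal of Gm26917 and Gm42418, and each library left out. DESeq2 with the block, removal of both replicate 1 libraries, pseudogene copies added to the closest variant (BLAST+ 2.17.0, at least 90% identity over 200 bases), and the transcript length were chosen after seeing the data. Gene lengths, coordinates and transcripts come from GENCODE M21 and promoters from RefSeq, both GRCm38.

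The members, lists and tests were chosen with earlier results of these data known. Named genes were all members, 5 fixed chaperones with any other past the threshold, genes with the same name stem and a mean of at least 1 CPM, and the 3 genes nearest in pattern to the most variable member with at least 5 CPM. Ogdh, overlapping genes and pseudogene copies were named outside this rule, with their values known. Deviations from the group means correlated at 0.62, 0.26 and 0.16 between same-numbered Alkbh5-deficient and WT fed libraries. Alkbh5-deficient 3 and WT 2 correlated at 0.29, and Alkbh5-deficient 2 and WT 3 at 0.28. The main test did not pair libraries, and the replicate block, an alternative, paired the same numbers. For 2 and 3 the correlations do not favour that pairing. No 2 libraries agreed within sampling noise (chi-square per gene at least 3.12). The labels do not say whether replicates are separate animals or cultures. Fed replicate 2 of each genotype held Xist RNA and no Ddx3y counts, unlike fed replicates 1 and 3. Its cells therefore came from other animals than theirs. Whether replicates 1 and 3 share an animal is not known. P-values measure only the spread of these libraries, which includes sex and may be partly technical. Intervals and floors cover counting error only.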

Additional observations from a re-analysis of the deposited data

How the results depend on the processing

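No variant was called between genotypes under any alternative run, and in fed over unlabelled libraries the count changed only with DESeq2, which called 1, H2afj. With the replicate block, pairing same-numbered libraries, 0 variants were called and H1f0 turned to -0.0040; the block changed no other direction. Some differences changed sign under other settings. Without replicate 1 of both genotypes H2afz was -0.048 between genotypes, and in fed over unlabelled libraries H3f3a was -0.012, against 0.37 with all libraries, H3f3b -0.087 and Srcap 0.085. In the additive fit over 8 libraries H2afx was 0.0095 and H2afy 0.00080, and without the low-count filter H3f3b was -0.0033 in fed over unlabelled libraries. With 1 library left out at a time, genotype differences ranged from -0.18 to 0.18 for H2afz, -0.30 to 0.091 for H2afv, -0.23 to 0.040 for H2afx, -0.22 to 0.13 for H2afy, -0.17 to 0.16 for H2afj, -0.10 to 0.67 for H3f3a, -0.14 to 0.065 for H3f3b, -0.58 to 0.61 for H1f0, -0.22 to 0.087 for Hira and -0.12 to 0.20 for Srcap. Differences of fed over unlabelled libraries ranged from -0.070 to 0.092 for H3f3b and -0.13 to 0.017 for Srcap. The causes were not tested. Over all genes the block raised unadjusted p under 0.05 to 353 genes, against 151 without it. With 3 libraries per genotype, and 2 unlabelled libraries in all, small differences could not have been detected.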
